A study of Mus musculus with 27 samples.

Results

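WT bone marrow-derived macrophages were compared in a crossed design of polarization and medium, to find the genes whose response to tumor medium depended on IL-4. The question was addressed with 12 of the 27 libraries of the series, all those of WT cells in batch 1: 4 groups of 3, made of unpolarized macrophages (Mφ, called M0 in the labels) and IL-4 polarized macrophages (M2), each kept in control medium (DMEM) or in medium conditioned by malignant peripheral nerve sheath tumor cells (MPNST-CM). The libraries are numbered 1 to 3 in each group, except M2 in control medium, numbered 2 to 4. Another 12 libraries of batch 1 came from macrophages that lack the mitochondrial chaperone TRAP1 (TRAP1 KO), in the same 4 groups. They serve a comparison given further below. All cells came from female C57BL/6 mice aged 3 to 4 months and were differentiated in medium conditioned by L929 cells, a source of the macrophage growth factor M-CSF. M2 cells then received IL-4 at 10 ng/mL for 24 h, and both kinds of cell were kept for 48 h in either medium, with MPNST-CM renewed after the first 24 h. The tumor cells that conditioned the medium are a mouse line made from skin precursors that lack Nf1 and p53. Whether IL-4 was still present during the medium exposure, and how many mice each group stands for, is not given in the sources used here, so p-values measure the spread between these libraries, which may be technical. Libraries were made by oligo-dT primed 3′ RNA-seq, and the authors deposited raw counts per gene, with totals from 7037684 to 8510959 in the 12 WT libraries. Levels are given as CPM, the counts scaled to library size with TMM factors, and they are not compared between genes.

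IL-4 signals through its receptor and the transcription factor STAT6, and turns macrophages towards alternative activation, with scavenging receptors, chitinase-like and resistin-like proteins and a set of CCL chemokines among the induced genes. It also lowers interferon-driven transcripts. Tumor-conditioned medium brings growth factors, metabolites and cytokines that act on the same cells, and both stimuli can add up on a gene, oppose each other or act only together. The interaction used here measures this for each gene: it is the log2 fold change between MPNST-CM and control medium in M2, minus the same fold change in Mφ. A positive value is a more positive medium response in M2, and a negative value a more negative one.

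The 3 WT libraries numbered 1 (Mφ in both media and M2 in MPNST-CM) stood apart from replicates 2 and 3 of their groups. In pairs that hold one of them, the chi-square per degree of freedom between replicates was 16.04 to 37.4, and it was 2.11 to 4.31 in the other 6 pairs. Malat1, a nuclear RNA, was at 6480 to 11016 CPM in these 3 libraries and at 2161 to 2589 CPM in the other 9. M2 in control medium has no such library, so this difference does not cancel in the interaction, and its part in the results was not tested other than by leaving these libraries out. Mitochondrial mRNA was 4.68 to 5.17% of counts in M2 in control medium, 3.54 to 4.54% in M2 in MPNST-CM and 2.84 to 3.42% in Mφ, and its part was not tested. All 12 libraries still resembled their own group most (Spearman's rho across genes 0.979 to 0.994, against 0.965 to 0.980 with the closest other group). Trap1 was between 11.05 and 18.92 CPM in the 12 WT libraries. All 12 macrophage markers checked were detected, with a summed level of 9765 to 11438 CPM over the 12 libraries. The 12 lymphocyte markers summed to at most 5.84 CPM, with Cd79a, Ncr1, Trbc2 and Ighm among those at 0 in every library, and the 14 fibroblast and Schwann lineage markers to at most 8.90 CPM. The 8 dendritic cell markers moved with the groups: their sum was 77.8 to 92.8 CPM in Mφ in control medium, 32.3 to 34.8 in Mφ in MPNST-CM, 1508 to 1531 in M2 in control medium and 392.5 to 423 in M2 in MPNST-CM, most of it in each group Itgax, an integrin that macrophages also express. The 12 eosinophil, mast cell and basophil markers summed to 109 to 111 CPM in M2 in control medium and 53.9 to 67.4 in M2 in MPNST-CM. In Mφ their sum was 15.2 to 25.5 CPM. Tpsb2 and Cma1 were at 0 and Prg2 and Epx under 3 counts in all libraries, but other members moved with the groups. Of the 6 tested, the medium lowered 5 in M2 and 2 in Mφ and raised 0 in either. Over all genes tested it lowered 9.7% in M2 and 9.12% in Mφ. Cpa3, Mcpt8 and Prss34, 3 of these 6, had a group at or under 3 counts. The 12 neutrophil markers summed to 27.7 to 35.3 CPM in M2 in control medium and 12.1 to 22.97 in the other groups, and the 8 platelet markers to 52.6 to 61.1 and 11.3 to 21.7, with Gp1bb at 0. The part of other cells in the results below was not tested, and fewer cells of a kind cannot be told apart from less RNA per cell.

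The response to MPNST-CM depended on polarization for 1293 of 13006 genes tested (9.94%), with a more positive response in M2 for 739 (5.68%) and a more negative one for 554 (4.26%). The test was edgeR's quasi-likelihood test at a Benjamini-Hochberg adjusted p of 0.05. Without the 3 libraries numbered 1, 2514 of 13078 genes passed (19.2%), 1308 and 1206, and 1219 of the 1293 were among them in the same direction. The balance of directions moved with the fit. The share with a more positive response in M2 was 57.2% in the main fit. It was 43.1% in a fit to all 24 libraries of batch 1 (712 and 941 genes). That fit tested 13614 genes, with a median interaction of -0.003 against 0.07 in the main fit. The share was 45.2% among genes with at least 10 CPM in 3 libraries (630 and 763). Without Mφ in MPNST-CM replicate 2 it was 41.1% (537 and 768). In Mφ the medium raised 1328 genes (10.2%) and lowered 1186 (9.12%), 19.3% in all, and in M2 it raised 1694 (13%) and lowered 1261 (9.7%), 22.7% in all. Of the 1293 genes, 571 passed the test of the medium response in M2 and not in Mφ, and 362 in Mφ and not in M2. A further 186 passed in both states in the same direction, with a different size, 126 passed in both in opposite directions, and 48 passed in neither. An absolute interaction of at least 1 on the log2 scale was reached by 416 genes, 311 of them positive. The counts of each gene list below are to be read beside the shares over all genes tested. These were 9.94% in the main fit (5.68% and 4.26% by direction) and 19.2% without the libraries numbered 1.

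**Figure D1:**
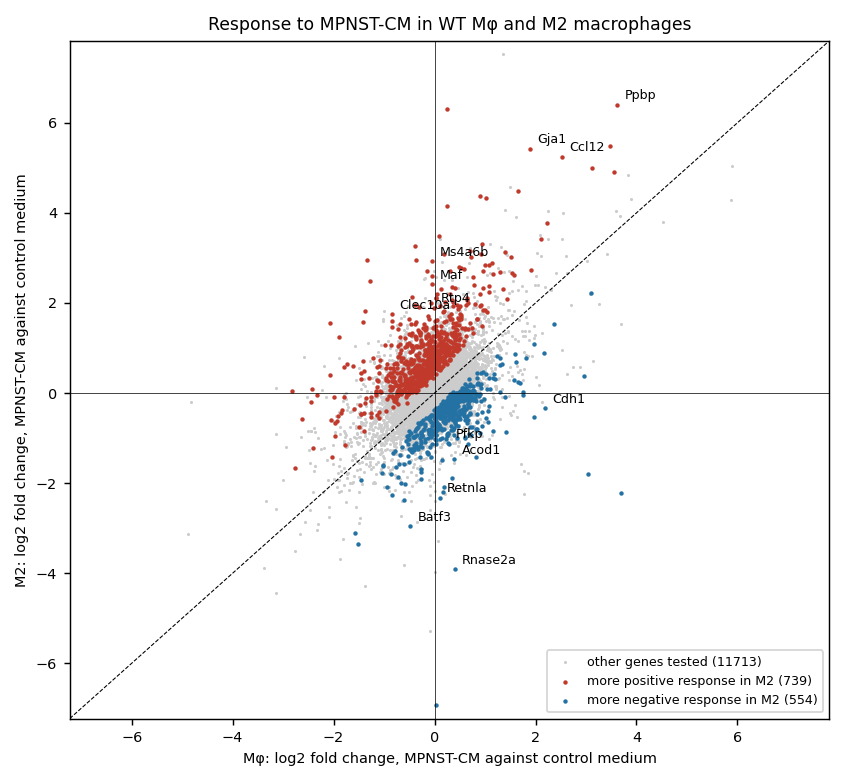
Log2 fold change between MPNST-CM and control medium in WT Mφ (horizontal axis) and WT M2 (vertical axis) for the 13006 genes tested, one point per gene, with the 739 genes of a more positive response in M2 in red, the 554 of a more negative one in blue and the others in grey. The dashed line marks equal responses, and the labelled Ms4a6b and Maf lie near 0 in Mφ and above 2 in M2.

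Most of these genes were further apart between M2 and Mφ in control medium than in MPNST-CM. This held for 1061 of the 1293 (82.1%), against 63.2% of all genes tested, as a description, since the same libraries enter both the gap and the interaction. Of the 554 genes with a more negative response in M2, 409 (73.8%) had their highest mean in M2 in control medium. Of the 739 with a more positive response, 369 (49.9%) had theirs in Mφ in control medium and 191 in M2 in MPNST-CM. These counts are a description too, since the sign of the interaction itself favors these groups. The transcription factor Maf, which drives macrophage identity and IL-10 expression, was low in M2 in control medium and higher in tumor medium. The 3 Mφ libraries of Maf were at 959.6, 1018 and 1027 CPM in control medium and 852, 1043 and 1016 CPM in MPNST-CM, and the 3 M2 libraries at 129.5, 131 and 133 CPM and 733, 677 and 685 CPM. The Mφ groups of both media overlapped, M2 in control medium was far below the other groups, and M2 in MPNST-CM lay between, with no overlap between any M2 and Mφ library. The interaction of Maf was 2.46 ± 0.11 (SE, adjusted p = 1.49e-08), with a medium response of 2.41 in M2 and -0.05 in Mφ. Ms4a6b, a membrane protein of the MS4A family, had the same shape. Levels of Ms4a6b were 235, 218 and 234 CPM (Mφ, control medium), 222, 229 and 214 CPM (Mφ, MPNST-CM), 23.5, 25.8 and 25.5 CPM (M2, control medium) and 190.3, 196 and 182 CPM (M2, MPNST-CM). Its interaction was 2.97 ± 0.11 (adjusted p = 9.16e-10). Also low in M2 in control medium and higher there in tumor medium were P2ry12, the purinergic receptor known from microglia (2.66 ± 0.35, adjusted p = 0.000286), Dmpk, a protein kinase (2.28 ± 0.27, 0.000103), and Inpp4b, a phosphoinositide phosphatase (2.31 ± 0.36, 0.000874). Ctla2b and Ctla2a, inhibitors of cathepsins, had interactions of 3.40 and 2.83, but they are near-identical copies whose reads the counting may have split, so which of the pair changed is uncertain.

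Among the other genes with the largest positive interactions, Gja1, the gap junction protein connexin 43, led by size. For Gja1, Mφ gave 2.52, 3.79 and 2.75 CPM in control medium and 7.13, 14.6 and 12.04 CPM in MPNST-CM, and M2 gave 0.453, 0.393 and 0.566 CPM and 20.4, 23.3 and 18.7 CPM. The medium raised it in both states without overlap, and M2 went from the lowest group to the highest (interaction 3.53 ± 0.48, adjusted p = 0.000322). The mean of Gja1 in M2 in control medium was 0.47 CPM, so few counts in that group define the size. Pmepa1, a feedback inhibitor of TGF-β signaling, rose in M2 alone. In control medium Pmepa1 was 2.65, 0.654 and 1.38 CPM in Mφ and 6.64, 6.29 and 5.94 CPM in M2, and in MPNST-CM it was 1.05, 1.05 and 1.52 CPM in Mφ and 65.8, 39.4 and 41.8 CPM in M2. Its interaction was 3.32 ± 0.54 (adjusted p = 0.00155), and it was 2.38 without the libraries numbered 1 (0.000432). Tnfsf14, the cytokine LIGHT, had an interaction of 2.37 ± 0.52 (0.00978). Gpr34, a lysophospholipid receptor, and Hpgd, which degrades prostaglandins, came to a positive value through a fall in Mφ. The 3 Mφ libraries of Gpr34 were at 30.02, 35.6 and 34.3 CPM in control medium and 9.71, 6.99 and 7.05 CPM in MPNST-CM, and the 3 M2 libraries at 2.72, 3.93 and 3.82 CPM and 5.07, 4.64 and 4.26 CPM. Only Mφ in control medium was high (interaction 2.48 ± 0.27, adjusted p = 5.31e-05), and for Hpgd the response was -2.43 in Mφ and 0.10 in M2 (2.53 ± 0.62, 0.021). On the negative side, H2-M2, a nonclassical MHC class I gene, fell in both states and more in M2. Levels of H2-M2 were 8.45, 9.55 and 9.98 CPM (Mφ, control medium), 2.46, 2.80 and 4.45 CPM (Mφ, MPNST-CM), 155, 153 and 122 CPM (M2, control medium) and 11.7, 13.1 and 16.9 CPM (M2, MPNST-CM). The interaction of H2-M2 was -1.84 ± 0.28 (adjusted p = 0.000769). Hebp2, a heme-binding protein (-2.26 ± 0.34, 0.000691), and Il20rb, a receptor chain for interleukin 20 family cytokines (-1.64 ± 0.36, 0.0104), fell in M2 without passing the test in Mφ. Tmem158 (-1.68 ± 0.16, 1.74e-05), F7, coagulation factor VII (-1.69 ± 0.19, 7.41e-05), and Trmt61a, a tRNA methyltransferase subunit (-1.64 ± 0.30, 0.00285), rose in Mφ and fell in M2. Ltb4r1, the leukotriene B4 receptor, fell in M2 (-0.89) with an interaction of -1.80 ± 0.43 (0.0154).

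**Figure D2:**
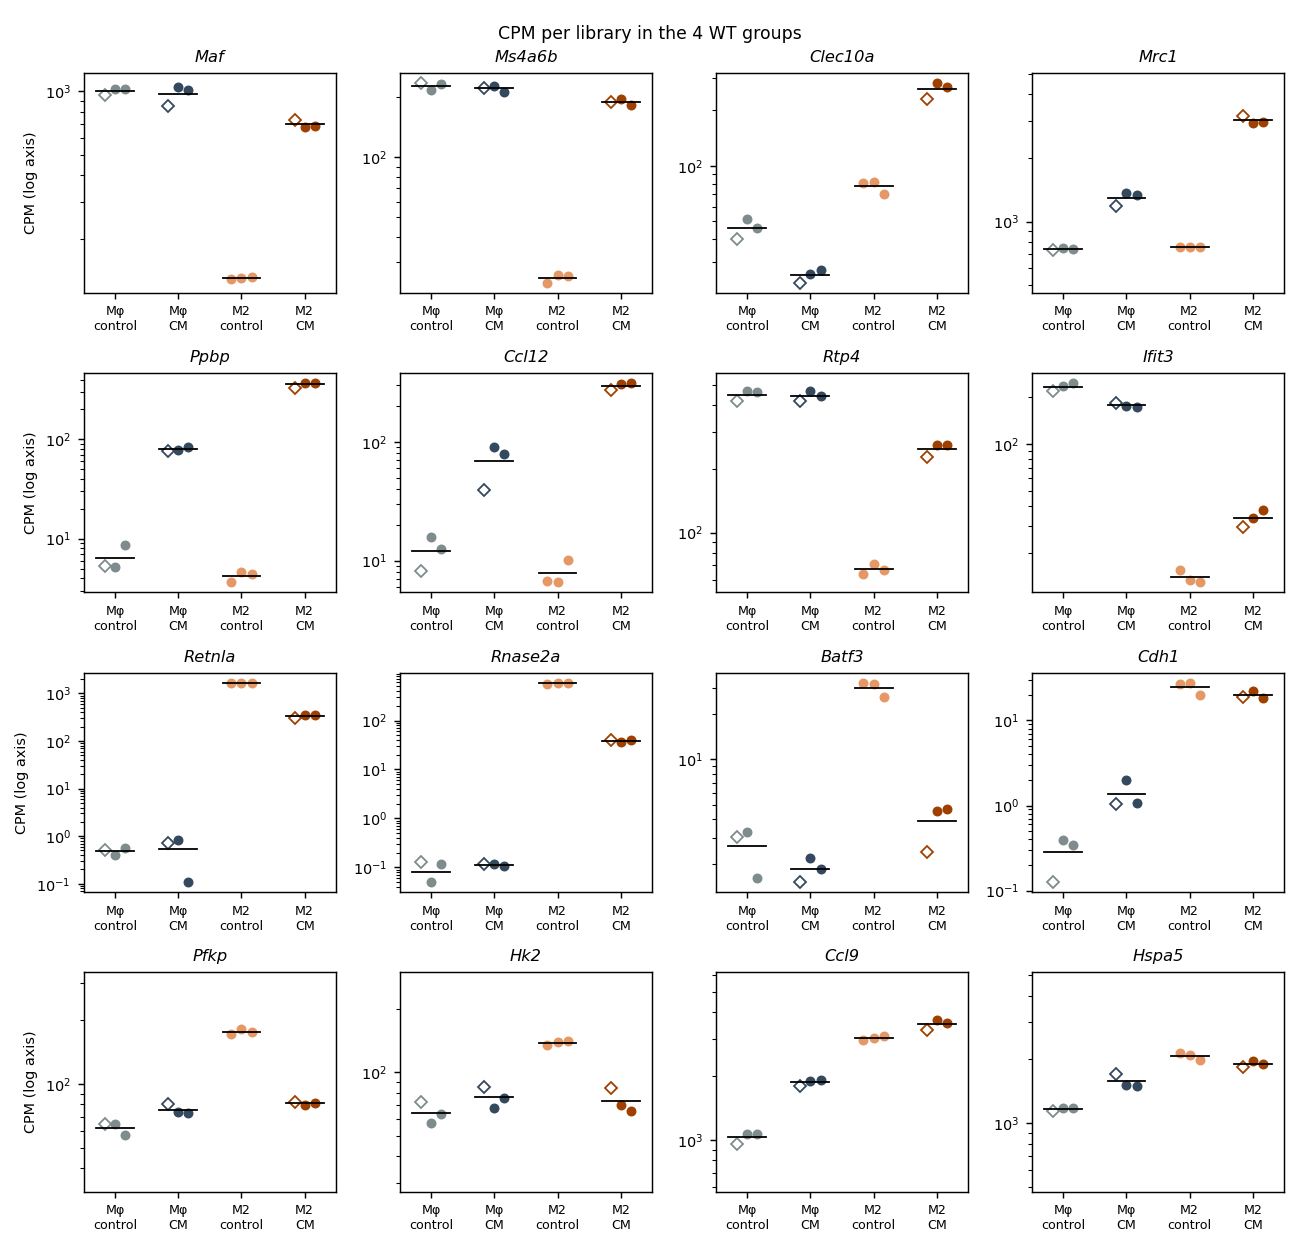
CPM on a log axis in each of the 12 WT libraries for 16 genes, by group (Mφ or M2, in control medium or MPNST-CM), with the group mean as a line and the libraries numbered 1 as open diamonds. Maf, Ms4a6b, Rtp4 and Ifit3 are lowest in the 3 libraries of M2 in control medium, while Retnla, Rnase2a, Batf3, Pfkp and Hk2 are highest there. A library with no count of Rnase2a is drawn at 0.05 CPM.

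The IL-4 program itself split. Of 40 genes of alternative activation, 32 were tested, and 3 had a more positive and 5 a more negative response in M2 (3 and 8 without the libraries numbered 1), with a median interaction of -0.50 against 0.07 over all genes tested. The medium response in M2 alone was negative for 17 of the 32 and positive for 6, so part of the list fell in M2 without passing the test against Mφ. A STAT6 motif, TTC and GAA parted by any 4 bases, was in 5 of the 23 promoters of the list (21.7%), 2 of the 5 past the test, 6.25% of the genes with a more negative response in M2, 8.58% of those with a more positive one and 6.71% of all genes tested with a RefSeq promoter. In the interferon-stimulated genes below it was in 9 of 31 (29%). The motif GAGGAA of PU.1, a factor of myeloid cells, was in 14 of the 23 promoters of the IL-4 list (60.9%), 5 of the 5 past the test and 31.1% of all genes tested. Retnla, the resistin-like protein RELMα, was almost absent from Mφ. For Retnla, Mφ gave 0.505, 0.392 and 0.574 CPM in control medium and 0.702, 0.815 and 0.108 CPM in MPNST-CM, and M2 gave 1701, 1664 and 1693 CPM and 308, 349 and 352 CPM. The M2 groups did not overlap, and the Mφ libraries held 26 counts in all, so the interaction of -2.43 ± 0.50 (adjusted p = 0.00614) compares a fall of -2.33 in M2 with a response in Mφ that few counts define. It missed the threshold without Mφ in MPNST-CM replicate 2 (adjusted p = 0.056). Rnase2a, an eosinophil-type ribonuclease, fell from 552, 595 and 598 CPM to 40.01, 35.8 and 40.5 CPM in M2 (log2 fold change -3.91 ± 0.10, adjusted p = 1.5e-12) and had at most 3 counts in each Mφ group, which gives no fold there. Batf3, a transcription factor of dendritic cells, and Cdh1, the adhesion protein E-cadherin that IL-4 induces for cell fusion, were the others with at least 10 CPM. In control medium Batf3 was 3.03, 3.27 and 1.61 CPM in Mφ and 32.6, 31.9 and 26.03 CPM in M2, and in MPNST-CM it was 1.52, 2.21 and 1.84 CPM in Mφ and 2.40, 4.51 and 4.66 CPM in M2. Only M2 in control medium was high. The interaction of Batf3 was -2.47 ± 0.41 (adjusted p = 0.00154). Cdh1 differed in kind, since it was 27.2, 27.9 and 19.8 CPM and 18.7, 22.3 and 18.4 CPM in M2, overlapping in range, while in Mφ it went from 0.126, 0.392 and 0.344 to 1.05, 1.98 and 1.08 CPM. Its interaction of -2.52 ± 0.50 (adjusted p = 0.00532) came with a rise in Mφ of 2.19 ± 0.47 (adjusted p = 0.00444). The change in M2 of -0.33 ± 0.18 did not pass (0.222). The rise started from a mean of 0.29 CPM in Mφ in control medium, so few counts define its size and that of the interaction.

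Other members of the program went the other way. Clec10a, a lectin receptor for galactose-type sugars, rose in M2 and fell in Mφ. The 3 Mφ libraries of Clec10a were at 40.2, 51.3 and 46.1 CPM in control medium and 23.2, 25.98 and 27.2 CPM in MPNST-CM, and the 3 M2 libraries at 80.7, 81.4 and 69.9 CPM and 230.4, 280.5 and 268 CPM. No library of one group overlapped with another group, and the interaction was 2.60 ± 0.16 (adjusted p = 2.87e-07), the difference between 1.75 in M2 (adjusted p = 2.9e-08) and -0.85 in Mφ (0.000149). Mrc1, the mannose receptor CD206, rose in both states. Levels of Mrc1 were 734, 751 and 743 CPM (Mφ, control medium), 1181, 1361 and 1336 CPM (Mφ, MPNST-CM), 761, 761 and 756 CPM (M2, control medium) and 3152, 2915 and 2967 CPM (M2, MPNST-CM). In control medium the Mφ and M2 libraries nearly coincided, and in MPNST-CM all 3 M2 libraries were far above the Mφ ones. The interaction of Mrc1 was 1.19 ± 0.10 (adjusted p = 4.96e-06).

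Among 23 scavenger and Fc receptors tested, 9 had a more positive and 3 a more negative response in M2 and 11 did not pass (median 0.43). Among 12 general macrophage markers the counts were 6 and 0 (median 0.36), or 7 and 2 without the libraries numbered 1. Over all genes tested, 5.68% had a more positive and 4.26% a more negative response. Fcgr1, the high-affinity IgG receptor, was 204, 229 and 223 CPM in Mφ in control medium and 234, 243 and 242 CPM in MPNST-CM. In M2 it was 28.8, 30.4 and 28.6 CPM and 76.6, 86.4 and 83.8 CPM. The media differed widely in M2 and by little in Mφ, with an interaction of 1.36 ± 0.11 (adjusted p = 4.96e-06). Cd14, the endotoxin co-receptor, had an interaction of 1.30 ± 0.25 (adjusted p = 0.00756), and Cd86, the co-stimulatory ligand, one of 1.75 ± 0.24 (0.000369). Mertk, a receptor for apoptotic cells, and Adgre1, the F4/80 antigen, fell in Mφ by 0.73 and 0.59 and had log2 fold changes of 0.00 and 0.23 in M2, with interactions of 0.73 ± 0.12 and 0.82 ± 0.14 (adjusted p = 0.00105 and 0.00154). The lectin Clec4a2 had a more negative response in M2 (-0.68 ± 0.10, adjusted p = 0.000585). In the complement list, 4 of 12 genes had a more positive and 2 a more negative response. The C1q chains C1qa (1.45 ± 0.18) and C1qc (0.79 ± 0.11) and the C5a receptor C5ar1 (1.39 ± 0.12) were among the first, and the central component C3 (-0.97 ± 0.12) among the second. Levels of C3 were 199.99, 190.2 and 183 CPM in M2 in control medium and 62.3, 62.6 and 67.4 CPM in MPNST-CM, and all 6 Mφ libraries were at or below 62.3 CPM. In MHC class II presentation 1 gene of 14 tested passed in each direction, a count near the 9.94% of all genes tested, or 3 in each without the libraries numbered 1, where 19.2% of all genes passed. Cd86 was the higher one and H2-DMb1, a peptide exchange chaperone, the lower one (-1.13 ± 0.12, adjusted p = 4.6e-05). Of 33 macrophage transcription factors, 5 went each way, beside the 9.94% of all genes tested. Without the libraries numbered 1, 6 were more positive and 10 more negative, beside the 19.2% of all genes.

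The CXC and CC chemokines leaned in opposite directions by count, a difference that was not tested. Of 9 CXC chemokines tested, 4 had a more positive response in M2 and none a more negative one (median 0.95, or 0.28 without the libraries numbered 1). Of 12 CC chemokines, 1 had a more positive and 5 a more negative response (median -0.76). Ppbp (CXCL7), a neutrophil attractant, was the strongest in the first family. For Ppbp, Mφ gave 5.30, 5.23 and 8.61 CPM in control medium and 75.8, 77.3 and 83.97 CPM in MPNST-CM, and M2 gave 3.62, 4.59 and 4.39 CPM and 333, 371 and 369.98 CPM. The medium raised it in both states without overlap, by 6.40 in M2 and 3.62 in Mφ, and the interaction was 2.79 ± 0.23 (adjusted p = 4.9e-06). Ppbp and Pf4 (CXCL4) are known from platelets. Of the 8 platelet markers, Vwf, which endothelial cells also make, held most of the summed level and had an interaction of -1.48 ± 0.24 (adjusted p = 0.00128), Itga2b was at 0 to 8 counts per library, and Gp1bb was at 0 throughout. Their part in the values of Ppbp and Pf4 was not tested. Pf4 was 358, 341 and 361 CPM in M2 in control medium and 4204, 5153 and 5119 CPM in MPNST-CM, against 826, 906 and 914 and 4225, 4266 and 3948 CPM in Mφ. Tumor medium brought M2 from below Mφ to the range of Mφ or above it, with an interaction of 1.54 ± 0.12 (adjusted p = 2.84e-06). Cxcl2, another neutrophil attractant, had an interaction of 1.38 ± 0.23 (0.00151). Cxcl10, an interferon-induced T cell attractant, fell in Mφ (-0.82) and was between 4.19 and 8.64 CPM in M2 in either medium, with an interaction of 1.18 ± 0.25 (0.00834).

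Ccl12, a monocyte attractant through CCR2, was the exception among the CC chemokines. In control medium Ccl12 was 8.20, 15.7 and 12.5 CPM in Mφ and 6.79, 6.55 and 10.2 CPM in M2, and in MPNST-CM it was 39.4, 90.7 and 78.4 CPM in Mφ and 273, 309 and 314 CPM in M2. Both responses were upward without overlap, and that of M2 was larger (5.25 against 2.52, interaction 2.73 ± 0.47, adjusted p = 0.00493). Its neighbours in function Ccl2 and Ccl7 had interactions of -0.80 ± 0.43 (adjusted p = 0.314) and -0.10 ± 0.28 (0.889) and did not pass. Mφ in MPNST-CM replicate 1 decided the call of Ccl2, at 299 CPM beside 792 and 766 CPM, and without it the interaction passed (-1.13, adjusted p = 0.00021), as it did without the 3 libraries numbered 1 (-0.94). The genes with a more negative response in M2 and at least 10 CPM were Ccl3 (-0.95 ± 0.14, adjusted p = 0.000494), Ccl4 (-0.95 ± 0.14, 0.000765), Ccl6 (-0.73 ± 0.10, 0.000351) and Ccl9 (-0.64 ± 0.10, 0.000781). Ccl3 shows their pattern. The 3 Mφ libraries of Ccl3 were at 75.2, 89.1 and 91.2 CPM in control medium and 150.3, 168 and 153 CPM in MPNST-CM, and the 3 M2 libraries at 246, 272 and 256 CPM and 218, 255 and 265 CPM. The medium raised it in Mφ, and in M2 the libraries of both media overlapped at a level above all Mφ libraries. Ccl9 and Ccl6 rose in both states and more so in Mφ. The fifth gene, Ccl17, had no count in Mφ in control medium and 3 in MPNST-CM, so no fold is given for it.

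All 40 interferon-stimulated genes of the list were tested, and 24 had a more positive response in M2 and 1 a more negative one (median 0.90), while in Mφ the medium lowered 16 and raised 0 of them. In M2 it raised 24 and lowered 3. Without the libraries numbered 1 the counts were 26 and 1. Rtp4, a chaperone of G protein-coupled receptors, is the one with the smallest adjusted p. Levels of Rtp4 were 417, 466 and 459.6 CPM (Mφ, control medium), 416, 465 and 443 CPM (Mφ, MPNST-CM), 63.5, 70.8 and 66.8 CPM (M2, control medium) and 228, 259 and 260.1 CPM (M2, MPNST-CM). The Mφ groups overlapped, M2 in control medium was lowest, and M2 in MPNST-CM lay between without overlap (interaction 1.91 ± 0.12, adjusted p = 2.87e-07). Ifit3, an RNA-binding antiviral protein, kept a wider gap. For Ifit3, Mφ gave 217, 233 and 245 CPM in control medium and 181, 174 and 172 CPM in MPNST-CM, and M2 gave 15.5, 13.5 and 13.02 CPM and 29.6, 33.5 and 37.8 CPM. It rose in M2 (1.26, adjusted p = 8.66e-07) and fell in Mφ (-0.40, 0.00758), and M2 in MPNST-CM remained below every Mφ library. The 2′-5′ oligoadenylate synthetases Oas2 (1.63 ± 0.14) and Oasl2 (1.32 ± 0.11) behaved alike. Ifit3 and Ifit3b are close copies whose reads the counting may have split. The exception, Gbp2, a guanylate-binding protein named here after its values were seen, went from 49.1, 44.3 and 47.96 to 10.9, 8.77 and 9.46 CPM in M2 and from 45.9, 38.97 and 38.2 to 21.98, 25.04 and 21.9 CPM in Mφ (-1.44 ± 0.17, adjusted p = 9.4e-05). The IFITM genes, membrane proteins that block virus entry and are often counted with the interferon genes, rose with the medium in both states and more in M2. All 4 tested passed, with interactions from 0.59 (Ifitm2) to 2.01 (Ifitm1).

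Interferon signals act through the interferon-stimulated response element (ISRE), searched here as 2 GAAA boxes parted by any 2 bases on both strands in the RefSeq promoters of mouse build GRCm38.p6, 250 bases before to 50 after each listed start. Promoters were matched by symbol for 9570 of the 13006 genes tested and 1019 of the 1293. The motif was present for 21 of the 31 interferon-stimulated genes with a promoter (67.7%), 13 of the 19 past the test and 381 of all 9570 (3.98%). It was present for 49 of 571 genes with a more positive response in M2 (8.58%) and 15 of 448 with a more negative one (3.35%). The AP-1 motif TGANTCA was in 9 of the 31 (29%), 8 of the 19 past the test (42.1%) and 6.33% of all genes tested. Sites of 8 of the 13 genes, picked after their values were seen, are shown because they carry this sequence, each as the 30 bases on the gene's coding strand around the site nearest the start, with the motif in capitals, read as TTTC boxes where it lies on the other strand.
Ifit1, chr19:34640794-34640823, plus strand, site beginning 85 bases before the start: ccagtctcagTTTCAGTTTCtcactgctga
Ifit3, chr19:34583397-34583426, plus strand, site beginning 122 bases before the start: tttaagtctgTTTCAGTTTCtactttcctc
Rsad2, chr12:26456553-26456582, minus strand, site beginning 120 bases before the start: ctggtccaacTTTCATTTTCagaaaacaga
Slfn8, chr11:83020839-83020868, minus strand, site beginning 48 bases before the start: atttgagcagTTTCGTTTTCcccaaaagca
Oas3, chr5:120777715-120777744, minus strand, site beginning 75 bases before the start: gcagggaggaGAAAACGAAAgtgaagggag
Bst2, chr8:71537577-71537606, minus strand, site beginning 124 bases before the start: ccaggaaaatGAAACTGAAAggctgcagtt
Stat2, chr10:128270266-128270295, plus strand, site beginning 222 bases before the start: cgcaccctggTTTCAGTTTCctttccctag
Gbp2, chr3:142620594-142620623, plus strand, site beginning 59 bases before the start: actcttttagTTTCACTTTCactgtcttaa
The first 7 of these genes had a more positive response in M2, with interactions of 1.95, 1.66, 1.04, 1.37, 1.03, 0.92 and 0.83. Gbp2 holds the motif and had the opposite sign. The window of Ifit3 is the same in its copy Ifit3b. A match is a description of the letters and not a measured binding site.

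Of 42 cell cycle transcripts tested, 17 had a more positive response in M2 and 0 a more negative one, while 25 did not pass (median 0.63), and without the libraries numbered 1 the counts were 31 and 1. The medium raised 34 of the 42 in M2 and 18 in Mφ. The E2F motif TTCCCGC was in 6 of 34 promoters (17.6%), in 1 of the 15 past the test (6.67%) and in 9.68% of all genes tested. Tk1, the thymidine kinase of S phase, was 92.1, 88.4 and 84.2 CPM in Mφ in control medium and 138, 128 and 116 CPM in MPNST-CM. In M2 it was 20.2, 17.2 and 17.1 CPM and 54.95, 59.04 and 68.2 CPM. No groups overlapped, and M2 stayed below Mφ in each medium (interaction 1.21 ± 0.15, adjusted p = 0.000173). The mitotic genes Kif11 (1.10 ± 0.18), Ndc80 (1.02 ± 0.17) and Ube2c (0.92 ± 0.13) were likewise lowest in M2 in control medium, and M2 in MPNST-CM stayed below all Mφ libraries.

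All 23 glycolytic genes were tested, with 9 of a more negative and 1 of a more positive response in M2 (median -0.51). The medium raised 16 of them in Mφ and lowered 0, and in M2 it raised 4 and lowered 3. Pfkp, a phosphofructokinase isoform, was high in M2 in control medium alone. In control medium Pfkp was 64.3, 64.3 and 57.6 CPM in Mφ and 173, 181 and 176 CPM in M2, and in MPNST-CM it was 79.99, 73.7 and 72.7 CPM in Mφ and 82.3, 79.5 and 81.7 CPM in M2. M2 in MPNST-CM came down to the level of Mφ in the same medium, with an interaction of -1.40 ± 0.11 (adjusted p = 4.14e-06). Hk2, the inducible hexokinase, fell likewise in M2 (-0.91 ± 0.12, adjusted p = 3.61e-05) and changed by 0.24 ± 0.12 in Mφ (0.171). Ldha and Pkm, the last enzymes of lactate production, behaved differently, with a rise in Mφ. The 3 Mφ libraries of Ldha were at 94.1, 95.2 and 88.6 CPM in control medium and 174, 167 and 174 CPM in MPNST-CM, and the 3 M2 libraries at 149.9, 146 and 151 CPM and 149, 189 and 167 CPM. The M2 libraries of both media overlapped (interaction -0.72 ± 0.12, adjusted p = 0.0018), and for Pkm the interaction was -0.75 ± 0.14 (0.00315). Hypoxia-inducible factors bind a core hypoxia response element, searched as ACGTG on both strands of the same promoters. It was present for 15 of the 22 glycolytic genes with a promoter (68.2%), 7 of the 10 past the test and 29.4% of all genes tested with a promoter. It was in 22.1% of the genes with a more positive response in M2 and 30.6% of those with a more negative one. Sites of 5 of the 7 members are shown in the same form, read as CACGT on the other strand, and the letters also lie within the CACGTG box that other factors bind.
Hk2, chr6:82774489-82774518, minus strand, site beginning 52 bases before the start: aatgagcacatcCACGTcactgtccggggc
Ldha, chr7:46845758-46845787, plus strand, site beginning 34 bases before the start: cgtgggttcccgCACGTccgctgggctccc
Pkm, chr9:59657223-59657252, plus strand, site beginning 8 bases after the start: ccgcattctagtCACGTccgcggactcctc
Slc2a1, chr4:119108697-119108726, plus strand, site beginning 36 bases before the start: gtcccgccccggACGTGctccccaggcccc
Aldoc, chr11:78323088-78323117, plus strand, site beginning 27 bases after the start: cccccagggagtCACGTagctctgcggcaa
The first 4 had a more negative response in M2 and Aldoc, an aldolase isoform named here after its values were seen, a more positive one (0.84). Pfkp, with the largest interaction of the list, did not hold these letters in its window. Hif1a itself had an interaction of -0.17 ± 0.13 (adjusted p = 0.509) and rose in both states. Of 22 other targets of hypoxia-inducible factors, 2 had a more positive and 3 a more negative response in M2, 3 and 5 without the libraries numbered 1 and 4 and 3 when replicate number was added as a block.

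Of 25 genes of the tricarboxylic acid cycle and complex II, 6 had a more negative response in M2 and 0 a more positive one (10 and 1 without the libraries numbered 1), among them Mdh2, malate dehydrogenase (-0.64 ± 0.10, adjusted p = 0.000867). Acod1, which makes itaconate, an inhibitor of succinate dehydrogenase, fell in M2 only. Levels of Acod1 were 24.98, 26.03 and 25.1 CPM (Mφ, control medium), 31.2, 32.96 and 35.8 CPM (Mφ, MPNST-CM), 30.9, 35.8 and 23.2 CPM (M2, control medium) and 10.7, 9.54 and 12.4 CPM (M2, MPNST-CM). All 3 libraries of M2 in MPNST-CM were below every other library (interaction -1.86 ± 0.21, adjusted p = 7.41e-05). Of 29 genes of cholesterol and fatty acid synthesis, the medium raised 26 in Mφ and 28 in M2, and 6 had a more negative and 1 a more positive response in M2. Scd2, a fatty acid desaturase, had the smallest adjusted p of them. For Scd2, Mφ gave 86.7, 89.1 and 91.8 CPM in control medium and 381, 413 and 413 CPM in MPNST-CM, and M2 gave 283, 287 and 316 CPM and 521, 585 and 531 CPM. All groups were apart and both responses upward (2.17 in Mφ, 0.88 in M2), with an interaction of -1.29 ± 0.11 (adjusted p = 4.96e-06). In the list of lipid uptake, efflux and droplets, 2 of 19 went up and 4 down by the interaction, with Fabp4, a fatty acid binding protein, at -1.64 ± 0.18 (adjusted p = 7.41e-05) and Msr1, the scavenger receptor A, at -0.50 ± 0.09 (0.00282). Of 25 antioxidant genes under NRF2, 5 had a more negative response in M2 and 0 a more positive one, where 9.94% of all genes tested passed. Without the libraries numbered 1, where 19.2% of all genes passed, the counts of the antioxidant genes were 11 and 0. The NRF2 motif TGACNNNGC was in 9 of their 22 promoters (40.9%), in 3 of the 5 past the test and in 17.1% of all genes tested. Prdx1, a peroxiredoxin, was 3885, 3656 and 3842 CPM in M2 in control medium and 1844, 2278 and 2182 CPM in MPNST-CM, with all 6 Mφ libraries between 1514 and 1715 CPM. Its interaction was -0.78 ± 0.11 (adjusted p = 0.000543). Also among the 15 most negative interactions were Ppargc1b, a co-activator of mitochondrial genes (-2.24 ± 0.25, adjusted p = 7.41e-05), and Chchd10, a mitochondrial protein (-2.01 ± 0.21, 4.6e-05).

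Chaperones of the endoplasmic reticulum had a negative interaction in all 17 members tested, and 8 passed (median -0.49), or 14 without the libraries numbered 1. The medium raised 8 of them in Mφ and lowered 0, and in M2 it raised 0 and lowered 1. Hspa5 (BiP), the main chaperone, is an example. In control medium Hspa5 was 1139, 1175 and 1181 CPM in Mφ and 2150.3, 2109 and 1976 CPM in M2, and in MPNST-CM it was 1704, 1521 and 1503 CPM in Mφ and 1831, 1962 and 1898 CPM in M2. Mφ in MPNST-CM was above Mφ in control medium in all libraries, and all 6 M2 libraries were above both (interaction -0.57 ± 0.10, adjusted p = 0.00194). Of 23 genes of the integrated stress response, 5 had a more negative and 2 a more positive response in M2. Slc7a11, the cystine transporter (-1.38 ± 0.19, adjusted p = 0.000403), and Atf3, a stress-induced repressor (-0.73 ± 0.12, 0.00174), were of the first kind, and Ddit4, an inhibitor of mTORC1 (1.74 ± 0.25, 0.000492), and Gdf15, a secreted stress factor (0.83 ± 0.17, 0.00675), of the second. The ATF4 motif TGATGNAA was in 7 of 22 promoters of the list (31.8%), in 2 of the 7 past the test and in 2.92% of all genes tested. Lysosomal genes had 5 of 24 with a more negative response and 0 with a more positive one (8 and 2 without the libraries numbered 1). Over all genes tested, 4.26% had a more negative response, and 19.2% passed in either direction without these libraries. Ctsz, cathepsin Z, had the smallest adjusted p of the lysosomal genes (-1.18 ± 0.14, adjusted p = 0.000108).

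Among secreted factors, matrix proteases and their inhibitors had 9 of 26 with a more negative and 3 with a more positive response in M2, and growth factor ligands 1 and 6 of 18. Mmp8, the neutrophil-type collagenase, moved in opposite directions in the 2 states. The 3 Mφ libraries of Mmp8 were at 134, 155 and 157 CPM in control medium and 279, 317 and 311 CPM in MPNST-CM, and the 3 M2 libraries at 189, 208 and 198 CPM and 128, 141 and 137 CPM. Mφ in MPNST-CM was the highest group and M2 in MPNST-CM the lowest of the M2 groups, without overlap, and the interaction was -1.57 ± 0.12 (adjusted p = 3.69e-06). Mmp13, collagenase 3, rose in Mφ (1.10) with a log2 fold change of 0.08 in M2 (interaction -1.02 ± 0.13, 0.000212). Thbs1, the matrix protein thrombospondin 1, which restrains vessel growth, went the other way. Levels of Thbs1 were 16.9, 17.4 and 16.8 CPM (Mφ, control medium), 125, 157 and 161 CPM (Mφ, MPNST-CM), 14.04, 11.3 and 12.9 CPM (M2, control medium) and 431, 391 and 404 CPM (M2, MPNST-CM). It rose in both states without overlap, and more in M2 (interaction 1.89 ± 0.16, adjusted p = 4.96e-06). Hgf, hepatocyte growth factor, fell in Mφ (-0.74) with a log2 fold change of 0.03 in M2 (interaction 0.77 ± 0.16, 0.00591). The study named 9 angiogenic transcripts on these samples, so their directions are not independent evidence, and 2 of them had a more positive and 3 a more negative interaction. Itgb3, integrin β3 (1.07 ± 0.19, adjusted p = 0.00264), and Ang, angiogenin (0.90 ± 0.20, 0.00919), were the first, and Mmp8, Ccl3 and Tnf (-0.77 ± 0.17, 0.0113) the second. Ccl2, Ccl7, Pdgfa (0.03 ± 0.13, 0.943) and Mmp10 (0.40 ± 0.80, 0.83) did not pass. Of the 11 RT-qPCR markers tested, 5 had a more positive and 2 a more negative response in M2. Vegfa, the main vessel growth factor, did not pass (0.62 ± 0.19, adjusted p = 0.0543), but it did under 7 of 24 alternatives, one of them leaving out the libraries numbered 1 (0.52, 0.0216), and its adjusted p reached 0.876 in the fit to all 27 libraries. Cd163 (0.86 ± 0.36, 0.16) and Il1b (-0.05 ± 0.23, 0.933) did not pass either. Mmp9, gelatinase B, fell in both states and less in M2 (1.02 ± 0.25, 0.0169). Nos2, the inducible nitric oxide synthase, had 8 and 9 counts in the Mφ groups, 41 in M2 in control medium and 0 in M2 in MPNST-CM, where it was at least 14.6-fold lower by a floor of 3 counts over the group, and its interaction is not given a size. Of 21 inflammatory cytokines and sensors, 4 had a more positive and 4 a more negative response in M2, and without the libraries numbered 1 the counts were 7 and 5.

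**Figure D3:**
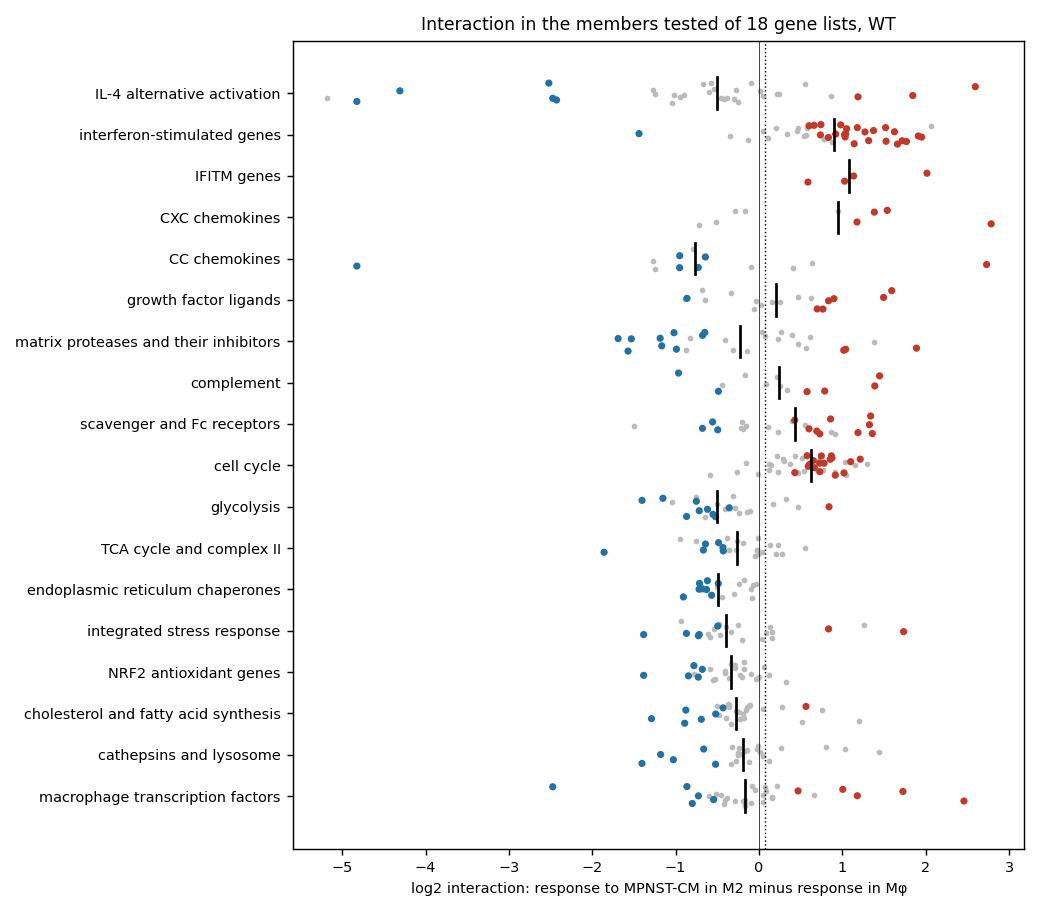
Log2 interaction in WT of the members tested of 18 gene lists, one point per gene, in red or blue where it passed the test with a more positive or more negative response in M2 and in grey where it did not. Black ticks are list medians and the dotted line the median of all genes tested, 0.07, with the interferon-stimulated genes at a median of 0.90 and the endoplasmic reticulum chaperones at -0.49.

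The same interaction was measured in 12 libraries of TRAP1 KO macrophages of batch 1, which the WT values do not use. Trap1 had no counts in these 12 libraries. The 4 groups, of 3 libraries each, were treated as those of WT, and 1558 of 12977 genes passed (12%), 693 with a more positive (5.34%) and 865 with a more negative response in M2 (6.67%). Of the 1293 WT genes, 1284 were tested in TRAP1 KO and 1103 had the same sign there (85.9%), against 64.2% of all 12608 genes tested in both. In the same direction, 536 genes passed in both genotypes, which is 41.7% of the WT genes and 34.7% of the 1543 TRAP1 KO genes, and 29 passed in opposite directions. The difference between genotypes passed its own test for 197 of the 1293 (15.2%), and for 423 of 13614 genes over the 24 libraries (3.11%), 251 with a more positive value in TRAP1 KO (1.84%) and 172 with a more negative one (1.26%). Of the 30 genes with the largest interactions, 27 had the same sign in TRAP1 KO, 13 passed there with that sign and Acod1 passed with the opposite one. Rnase2a counts among the 27 and the 13, but its WT value rests on Mφ groups at the floor and is no measured fold. Ms4a6b (2.59), Clec10a (3.23), Ccl12 (3.00), Retnla (-2.44) and F7 (-1.67) had TRAP1 KO interactions close to their WT values, and were picked for this after their values were seen. For these 5 the difference between genotypes did not pass (adjusted p from 0.14 to 0.984). The interferon-stimulated genes had a median interaction of 2.51 in TRAP1 KO, where 39 of the 40 passed upward, and 33 differed between genotypes. The endoplasmic reticulum chaperones had a median of -0.52 with 11 of 17 passing, and 0 differed. Glycolytic genes had a median of -0.70 with 12 of 23 passing downward, and 2 differed. Among single genes, the interaction of Vegfa was -1.25 in TRAP1 KO and 0.62 in WT (adjusted p of the difference = 9.64e-06), that of C3 1.25 and -0.97 (3.11e-09), that of Ccl4 1.38 and -0.95 (2.13e-08) and that of Gbp2 2.37 and -1.44 (7.45e-13). These 4 had opposite signs in the genotypes, and they too were picked after their values were seen. Mmp8 and Cxcl10 kept their sign with a larger size, at -4.08 and 5.05 in TRAP1 KO.

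**Figure D4:**
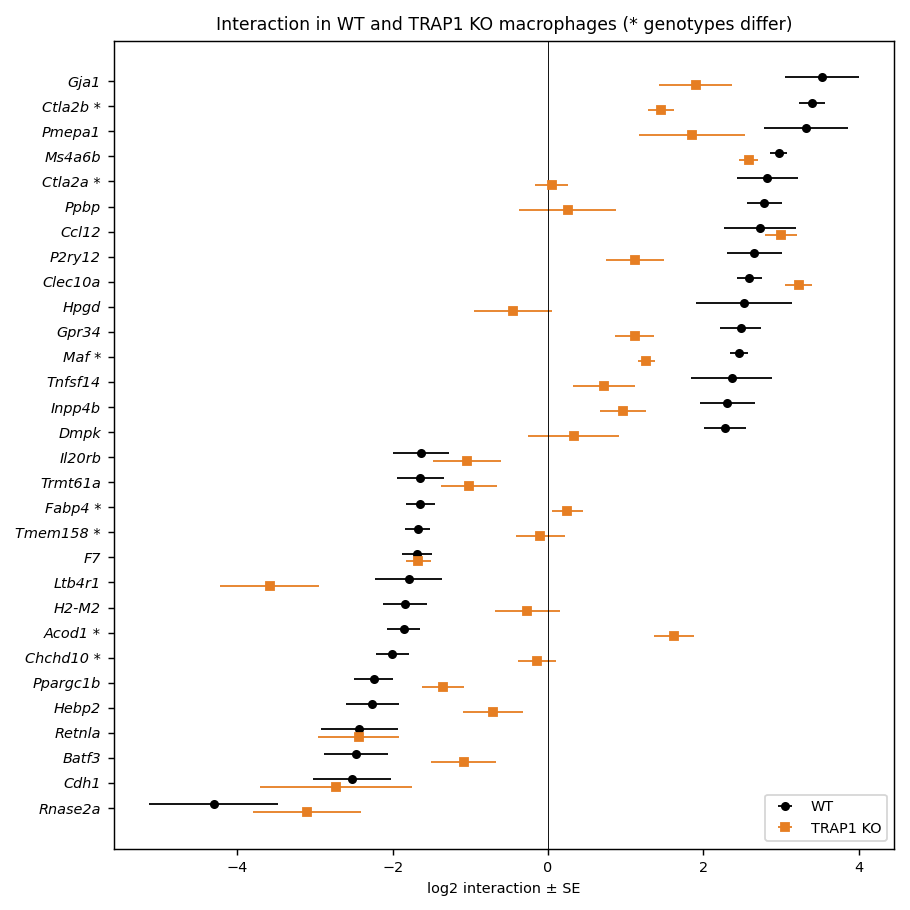
Log2 interaction with its standard error in WT (black circles) and TRAP1 KO (orange squares) for the 30 genes with the largest interactions in WT, 15 in each direction. The point of Rnase2a rests on at most 3 counts in each WT Mφ group and is no measured fold. An asterisk marks the 7 genes whose interaction differed between genotypes, Acod1 among them with opposite signs (-1.86 in WT and 1.62 in TRAP1 KO).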

How the data were processed

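Macrophages grown from bone marrow, WT or TRAP1 KO, were profiled by 3′ RNA-seq, and 27 of the 32 columns of the deposited table belong to the series' samples. The other 5 matched no sample label and were not used. According to the labels and the study's methods, the authors trimmed reads with Trimmomatic, checked them with FastQC, aligned them with HISAT2, filtered them with SAMtools and counted them per gene with featureCounts, and the authors deposited raw counts for 50559 genes. The submitters' processing notes give the build as mm39 and the study's methods another one. The strand setting and annotation are not given in the sources used here.

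The interaction was tested on the counts of the 12 WT libraries of batch 1 with edgeR 4.0.16 in R 4.3.3 (TMM factors, filterByExpr, robust quasi-likelihood fit, one coefficient per group), with Benjamini-Hochberg adjustment over all genes tested at 0.05. The standard error is the size of the log2 fold change over the square root of F. The steps were tested on simulated data. TRAP1 KO was fitted likewise on its 12 libraries of batch 1, and the difference between genotypes over all 24. Alternatives were DESeq2 1.42.0, limma 3.58.1 (voom), other scaling factors and filters, more libraries, blocks and leaving libraries out. The gap between M2 and Mφ used log2(CPM + 0.5).

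Genes were named by rule: past the threshold, at least 10 CPM in 1 group, medium responses of M2 and Mφ that do not overlap (16.1% of all genes tested), and no predicted gene, then the 15 largest in each direction. Up to 4 genes of each list with the smallest adjusted p, and all genes of the study's RT-qPCR and angiogenic lists, were added. Members and lists were chosen with earlier results of these data known. A floor of 3 counts over the group stands in for 0, and covers counting error only. Promoters and their coordinates are from RefSeq, GRCm38.p6, matched by symbol. Of 10 motifs searched, 2 are not described: STAT (TTCNNNGAA) and NF-kB (GGGANNNCC). The totals of 7037684 to 8510959 counts per WT library limit precision for genes near the floor. Some items are not reported here.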

Additional observations from a re-analysis of the deposited data

Results flagged for a closer look

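The interaction of polarization and medium differed between WT and TRAP1 KO for 423 of 13614 genes, by the test of the difference itself over 24 libraries with 3 per group (edgeR's quasi-likelihood test). Of the 30 genes with the largest interactions in WT, 7 were among them. The TRAP1 KO value minus the WT value was 3.58 for Acod1, the enzyme of itaconate synthesis, with opposite signs in the genotypes. It was 1.997 for the fatty acid binding protein Fabp4, 1.97 for the mitochondrial protein Chchd10 and 1.68 for Tmem158, each with a negative interaction in WT that did not pass in TRAP1 KO. For Maf the difference was -1.09, for Ctla2b -1.84 and for Ctla2a -2.67, so the more positive response of M2 was smaller in TRAP1 KO, and the reads of the last 2 genes may be mixed. Leaving out 1 library at a time gave 331 to 435 such genes, and leaving out the 3 WT libraries numbered 1 gave 518. The fit to all 27 libraries gave 23.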

How the results depend on the processing

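Of the 117 named genes, 109 were past the threshold, 0 of these reversed under any alternative, and 84 stayed past it under every alternative but the fit to all 27 libraries, which lost 88. The interaction held for 192 genes with the 27 libraries, the medium response for 1014 in M2 and 958 in Mφ, the TRAP1 KO interaction for 407 and the difference between genotypes for 23, and the cause was not tested. Without the 3 libraries numbered 1 (an alternative chosen after seeing the data), the counts were 2514, 4653 in M2 and 3781 in Mφ. With an absolute log2 change of at least 1, a stricter threshold, they were 416, 882 and 475.

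Other settings gave 1382 genes (DESeq2), 1273 (median-of-ratios factors), 1255 (upper quartile factors), 1244 (voom), 1478 (no filter) and 1144 (13 WT libraries of both batches). Leaving out 1 library gave 874 to 1393, and the share with a more positive response in M2 ranged from 41.1% (without Mφ in MPNST-CM replicate 2) to 58.7%, with 45.4% without M2 in MPNST-CM replicate 3. The labels do not say that a replicate number marks a shared animal or day. Deviations of same-numbered libraries correlated at a mean of 0.172 over 15 pairs (-0.0882 to 0.504), 9 of them over 0.1. In pairs with other numbers the mean was -0.0624 over 39 pairs, 6 of them over 0.1. With the replicate number as a block, 1831 genes passed, 1217 of the 1293 among them. With sets of consecutive library numbers as a block, 1671 genes passed, 1286 of the 1293 among them.

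3 genes that did not pass changed sign, the cause not tested. Ccl7 was 0.075 with all 27 libraries, 0.12 with 13 WT libraries and 0.13 with the replicate block, and -0.32 to 0.028 leaving out 1 library. Il1b was 0.22 without the libraries numbered 1, and -0.25 to 0.094 leaving out 1 library. Pdgfa was -0.015 with DESeq2 and with median-of-ratios factors, -0.023 with upper quartile factors and at 10 CPM, -0.050 with 24 libraries, -0.11 with 27, -0.069 with 13 and -0.094 without the libraries numbered 1, and -0.11 to 0.084 leaving out 1 library. Called genes that missed the threshold included Rnase2a under 4 (0.065 to 0.082), Retnla, Hpgd, Ltb4r1, Tnfsf14, Mmp9, Psap, Bhlhe40 and Nos2. Depth limits genes with few counts in Mφ, and 10 of the 1293 had a group at or under 3 counts.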
